A study of Mus musculus with 15 samples.

Results

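The 10 genes described here code for secreted proteins of the nasal glands, out of 57010 genes counted in 15 RNA-seq libraries of mouse olfactory epithelium. They are the odorant-binding proteins Obp1a, Obp1b, Obp2a and Obp2b, the lipocalins Lcn3, Lcn4 and Lcn11, the major urinary proteins Mup4 and Mup5, and the mucosal glycoprotein Dmbt1. They were chosen by their counts in these 15 libraries, high in some and near 0 in others, so the split itself is described here and not tested. The tissue came from male wild-type C57BL/6J mice 8 weeks of age, and the sequenced RNA was the messenger RNA that came down with ribosomal protein S6 in its phosphorylated form (pS6), a modification that rises in active neurons. Control mice were given papers without odorant. The odorants were acetophenone with decanal (A+D, A&D) or octanal with cis-3-hexenol (O+C, O&C), 10 µL of each for 90 min after 4 h of habituation. A plus sign in the group name means that the pair shared 1 filter paper, and an ampersand that each odorant had its own paper, with 1 mm between the 2 papers. There were 3 libraries in each of the 5 groups, labelled as biological replicates and each taken as 1 mouse.

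Lipocalins are small secreted proteins folded into a barrel that holds a hydrophobic ligand. Odorant-binding proteins are lipocalins that glands of the nose release into the mucus over the olfactory and respiratory epithelium, where they bind odorants. Lcn3 and Lcn4 are also named vomeronasal secretory proteins, after the glands of the vomeronasal organ and septum that make them. Major urinary proteins are lipocalins best known from liver and urine, where they carry pheromones, and some of them are made in nasal and other glands. Dmbt1 is no lipocalin. It is a large scavenger receptor glycoprotein of mucosal secretions that binds bacteria. None of these genes is known as a product of the sensory neurons that the pS6 precipitation is aimed at, and they are known as products of gland cells. All 15 libraries hold RNA precipitated with pS6, without libraries of the tissue's total RNA beside them. Fewer gland cells, less RNA per gland cell and less of that RNA in the precipitate therefore cannot be told apart.

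Lipocalin genes lie in clusters of copies. In RefSeq, 6 genes of an odorant-binding protein cluster follow each other on the X chromosome in the order Gm14744, 5430402E10Rik, Obp1a, Gm5938, Obp1b and Gm14743. On chromosome 2, Obp2a and Obp2b (also named Lcn13 and Lcn14) lie on either side of Bmyc and are followed by Lcn3 and Lcn11, while Lcn4 lies elsewhere on that chromosome. Mup4 and Mup5 lie on chromosome 4. RefSeq promoters (GRCm38.p6, 250 bases before to 50 after the annotated start) were matched for 8 of the 10 genes, all but Mup5 and Dmbt1. The 150 bases before the start are shown for the Obp1 pair and the Obp2 pair, the first with like and the second with unlike levels across libraries, and for Lcn3 and Lcn11, which are neighbours. They are written 5′ to 3′ on the gene's own strand, with TATAAA, the core of the TATA box, in capitals.
Obp1a, chrX:78091375-78091524, minus strand: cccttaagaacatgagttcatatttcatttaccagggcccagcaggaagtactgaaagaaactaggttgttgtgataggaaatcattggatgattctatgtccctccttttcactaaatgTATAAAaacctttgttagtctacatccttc
Obp1b, chrX:78186658-78186807, plus strand: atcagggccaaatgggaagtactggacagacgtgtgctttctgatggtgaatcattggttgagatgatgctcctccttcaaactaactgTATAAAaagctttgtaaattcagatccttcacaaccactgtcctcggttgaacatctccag
Obp2a, chr2:25699924-25700073, plus strand: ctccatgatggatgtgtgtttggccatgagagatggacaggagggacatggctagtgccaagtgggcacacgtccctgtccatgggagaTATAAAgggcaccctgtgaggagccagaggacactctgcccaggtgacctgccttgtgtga
Obp2b, chr2:25736857-25737006, plus strand: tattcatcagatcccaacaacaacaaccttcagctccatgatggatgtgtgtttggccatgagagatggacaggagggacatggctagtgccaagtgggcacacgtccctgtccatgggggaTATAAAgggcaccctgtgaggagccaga
Lcn3, chr2:25765383-25765532, plus strand: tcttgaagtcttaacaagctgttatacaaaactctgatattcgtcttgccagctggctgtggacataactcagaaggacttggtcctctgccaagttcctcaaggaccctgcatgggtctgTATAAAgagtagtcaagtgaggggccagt
Lcn11, chr2:25776867-25777016, plus strand: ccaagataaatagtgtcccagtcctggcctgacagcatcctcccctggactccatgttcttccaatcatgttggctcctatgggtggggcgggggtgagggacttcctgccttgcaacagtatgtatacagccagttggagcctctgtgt

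The letters TATAAA stood in 6 of the 8 promoters on the gene's own strand, beginning 30 bases before the start in Obp1a, 61 bases before it in Obp1b and Obp2a, 28 in Obp2b, 29 in Lcn3 and 27 in Mup4. Those of Lcn4 and Lcn11 did not hold it. Of 32851 mouse promoters of the same length, 13.6% held TATAAA on either strand. In 2.87% of them it lay on the gene's own strand before the start, beginning less than 61 bases from it. Of the 8, Obp1a, Obp2b, Lcn3 and Mup4 held it there. The Obp2a and Obp2b promoters were nearly the same sequence. They matched at 263 of 267 aligned bases without a gap, with the annotated starts offset by 33 bases, while whole transcripts of this pair (GENCODE M21) were 70.9% identical. Obp1a and Obp1b shared a stretch of 79 bases around the TATAAA with 61 identical. The other letters searched on both strands were ACAAAG, the core of SOX factor sites, TGTTTAC for forkhead factors, CATATG, an E-box, and CCACGT for XBP1. ACAAAG stood in Obp1a, Obp1b, Obp2b, Lcn4 and Mup4, against 18.7% of all promoters. CCACGT stood in Mup4 alone among the 8 (8.31% of all promoters), and TGTTTAC and CATATG in none of them (3.65% and 3.91%).

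Total counts ran from 22704193 to 25287077 per library, and levels are given as CPM, the count scaled to a common library total. A count of 0 allowed a level of up to 0.119 to 0.132 CPM (3 counts, counting error only). Library A+D 2 stood apart from the rest, with a mean correlation to the other libraries of 0.964 over 17019 genes, and the others lay between 0.978 and 0.985. The next lowest were A&D 1 (0.9776), Control 1 (0.9776), O&C 3 (0.9779) and O&C 1 (0.9788), followed by Control 3 (0.9807). A+D 2 and the first 4 of these are the libraries in which the 10 genes were near 0, as given below. Why they correlated least with the rest was not tested. Markers of the labelled tissue were present throughout. Omp, the marker of mature olfactory sensory neurons, lay between 4391 and 9712 CPM. Several of the 10 genes shared reads with a copy. The counts of Obp2a and Obp2b were not whole in 11 libraries and their sum was whole in all 11, and the same held for Mup4 with Mup5 in 7 libraries, Obp1b with Gm14743 in 10, and Obp1a with Gm5938 in 6 (tolerance 0.0015). The split of reads within these pairs is uncertain. Lcn3, Lcn4, Lcn11 and Dmbt1 had whole counts in all 15 libraries.

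Summed over the 10 genes, the level differed 1522-fold between libraries. It was 1.18 CPM in Control 1, 519 in Control 2 and 968 in Control 3. A+D 1, 2 and 3 held 1007, 4.27 and 1158 CPM. A&D 1, 2 and 3 held 4.08, 1798 and 688 CPM, and O+C 1, 2 and 3 held 1177, 352 and 401 CPM. O&C 1, 2 and 3 held 1.41, 302 and 3.04 CPM. O&C 1, O&C 3, Control 1, A+D 2 and A&D 1 were thus near 0, a library in every group but O+C and 2 of the 3 in O&C. These 5 libraries held 33, 72, 28, 97 and 98 counts of the 10 genes together, and the lowest of the others, O&C 2, held 7515. When the 15 levels of each gene were put in order on a log2 scale (CPM + 0.1), the widest gap had the same 5 libraries below it for all 10 genes, which is the property they were picked for. The gap was widest for Obp2a (5.68 on the log2 scale, from 2.02 CPM in O&C 3 to 109 in O&C 2) and Lcn4 (5.42, from 0.169 in O&C 3 to 11.4 in O+C 3), and narrowest for Dmbt1 (2.32, from 0.427 in O&C 1 to 2.53 in Control 3) and Mup5 (1.99, from 0.308 in A+D 2 to 1.52 in O+C 2). With a pseudocount of 1 in place of 0.1, the widest gap of Mup5 had 6 libraries below it.

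**Figure D1:**
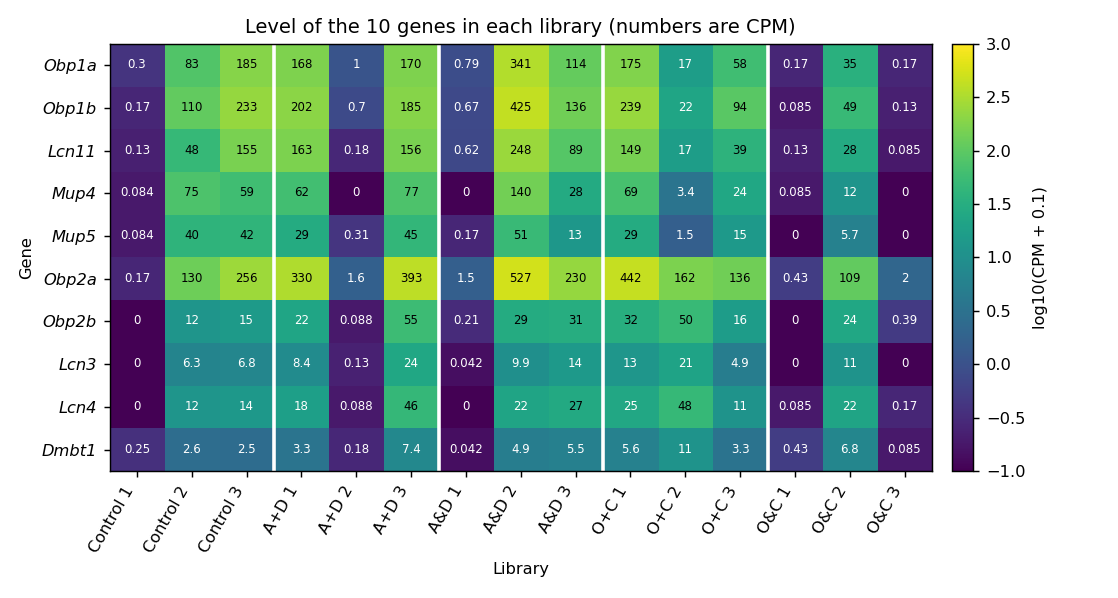
Level of the 10 genes (rows) in the 15 libraries (columns, white lines between groups), with colour for log10(CPM + 0.1) and the CPM printed in each cell. O&C 1, O&C 3, Control 1, A+D 2 and A&D 1 are dark in every row, and O+C 2 is dim for the genes at the top and bright for those at the bottom.

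Obp1a (ENSMUSG00000067684) and Obp1b (ENSMUSG00000067679) code for odorant-binding proteins of the X-chromosome cluster. In Control 1, 2 and 3 the level of Obp1a was 0.295, 82.8 and 185 CPM, 168, 1.01 and 170 in the A+D libraries, 0.791, 341 and 114 in A&D, 175, 16.9 and 58.4 in the O+C libraries, and 0.171, 35.0 and 0.169 in O&C. It was highest in A&D 2 and, above the gap, lowest in O+C 2, which was 20.2-fold lower. The 5 groups overlapped. Obp1b followed it closely, from 0.0854 CPM in O&C 1 to 425 in A&D 2, and its level was 1.08 to 1.62 times that of Obp1a in the 10 libraries above the gap, with a median of 1.29. Lcn11 (ENSMUSG00000069080), a lipocalin of the chromosome 2 cluster, also ran with Obp1a although it lies on another chromosome. It lay between 16.9 CPM in O+C 2 and 248 in A&D 2 above the gap, and at 0.583 to 1.00 times the level of Obp1a.

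Mup4 (ENSMUSG00000041333) was at 0.0844, 75.0 and 59.2 CPM in Control 1, 2 and 3, at 62.3, 0 and 76.8 in the A+D libraries, at 0, 140 and 27.9 in A&D, at 69.0, 3.37 and 23.7 in the O+C libraries, and at 0.0854, 11.7 and 0 in O&C. It spanned 41.6-fold above the gap, the widest of the 10 genes, again with A&D 2 highest and O+C 2 lowest. Mup5 (ENSMUSG00000058523), whose transcript is 91.9% identical to that of Mup4, ran from 1.52 CPM in O+C 2 to 51.2 in A&D 2 above the gap and was at 0 in O&C 1 and O&C 3. The Mup4 count was 1.43 to 2.74 times that of Mup5 in the libraries above the gap. Control 2 had more Mup4 for its Obp1a than any other library above the gap, 0.907 against 0.2 to 0.451 elsewhere.

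Obp2a (ENSMUSG00000062061) had the highest median level per kilobase of transcript over the 15 libraries, 183 CPM per kb, against 118 for Obp1b, 77.1 for Obp1a, 22.0 for Obp2b, 9.91 for Lcn3 and 0.523 for Dmbt1. Its level was 0.169, 130 and 256 CPM in Control 1, 2 and 3, 330, 1.59 and 393 in the A+D libraries, 1.54, 527 and 230 in A&D, 442, 162 and 136 in the O+C libraries, and 0.427, 109 and 2.02 in O&C. All 5 groups overlapped, since each held high and low libraries except O+C. Above the gap it spanned 4.86-fold, and O+C 2 was not its lowest library. Obp2a made up 25.0% to 46.0% of the counts of the 10 genes in the libraries above the gap. In O&C 3 it was 48 of 72 counts, or 66.7% (exact Clopper-Pearson 95% interval 54.6 to 77.3, counting error only), and in Control 1 it was 4 of 28, or 14.3% (4.03 to 32.7). In the other 3 libraries below the gap it was within the range above the gap, with 10 of 33 counts (30.3%) in O&C 1, 36 of 97 (37.1%) in A+D 2 and 37 of 98 (37.8%) in A&D 1.

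Obp2b (ENSMUSG00000079539) did not follow Obp2a, although their promoters are nearly alike and they share reads. It was at 0, 12.1 and 14.8 CPM in Control 1, 2 and 3, at 22.4, 0.0881 and 54.7 in the A+D libraries, at 0.208, 29.0 and 31.4 in A&D, at 32.1, 49.7 and 16.1 in the O+C libraries, and at 0, 24.1 and 0.387 in O&C. The ratio of Obp2a to Obp2b went from 3.26 in O+C 2 to 18.2 in A&D 2. Lcn4 (ENSMUSG00000026919) was at 0, 12.3 and 13.6 CPM in Control, at 17.9, 0.0881 and 45.5 in the A+D libraries, at 0, 21.9 and 27.2 in A&D, at 24.8, 47.8 and 11.4 in the O+C libraries, and at 0.0854, 21.9 and 0.169 in O&C. The library with the least Obp1a above the gap, O+C 2, thus had the most Lcn4. Lcn3 (ENSMUSG00000026936) kept close to Lcn4, which stood at 1.91 to 2.32 times its level in every library above the gap, and Obp2b stood at 0.990 to 1.41 times Lcn4. Lcn3 and Lcn11 are neighbouring genes, but their ratio ranged from 0.819 Lcn11 per Lcn3 in O+C 2 to 25.1 in A&D 2.

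Dmbt1 (ENSMUSG00000047517) had few counts, 59 to 285 above the gap, and its levels followed those of Lcn3 and Lcn4 with O+C 2 highest. It was at 0.253, 2.63 and 2.53 CPM in Control 1, 2 and 3, at 3.34, 0.176 and 7.36 in the A+D libraries, at 0.0416, 4.88 and 5.48 in A&D, at 5.59, 11.4 and 3.28 in the O+C libraries, and at 0.427, 6.83 and 0.0845 in O&C. In O&C 1 it made up 10 of the 33 counts of the 10 genes, or 30.3% (15.6 to 48.7, exact Clopper-Pearson 95% interval), and in Control 1 6 of 28, or 21.4% (8.30 to 41.0). It was 4 of 97 in A+D 2 (4.12%), 2 of 72 in O&C 3 (2.78%) and 1 of 98 in A&D 1 (1.02%). Above the gap its share was 0.261% to 3.25%, so that O&C 3 and A&D 1 lay inside that range and the other 3 libraries above it, on few counts.

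The 10 genes fell into sets with different orders of the libraries above the gap. Among Obp1a, Obp1b, Lcn11, Mup4 and Mup5, the rank correlation over the 10 libraries above the gap was 0.76 to 0.98 for the 10 pairs of genes (Spearman rho). Among Lcn3, Lcn4, Obp2b and Dmbt1 it was 0.89 to 0.99 for the 6 pairs. Between the 2 sets it was -0.38 to 0.03 for the 20 pairs. Obp2a stood nearer to the first set, with 0.65 to 0.87, than to the second, with 0.09 to 0.44. These correlations are a description of 10 libraries that share their totals, and the sets were read from the same values. The level of Lcn4 relative to Obp1a shows how far the sets parted. Lcn4 was 0.0642 times Obp1a in A&D 2 and 2.84 times Obp1a in O+C 2, a 44.2-fold spread, while Lcn4 relative to Lcn3 spread 1.22-fold. In A&D 2 the level per kilobase was 450 CPM for Obp1a, 380 for Lcn11, 709 for Obp2a, 39.7 for Obp2b and 28.3 for Lcn4. In O+C 2 Lcn4 (61.8) and Obp2b (67.9) were above Obp1a (22.3) and Lcn11 (25.8), and Obp2a remained highest at 218. The counts behind these values were 420 for Obp1a and 1192 for Lcn4 in O+C 2.

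**Figure D2:**
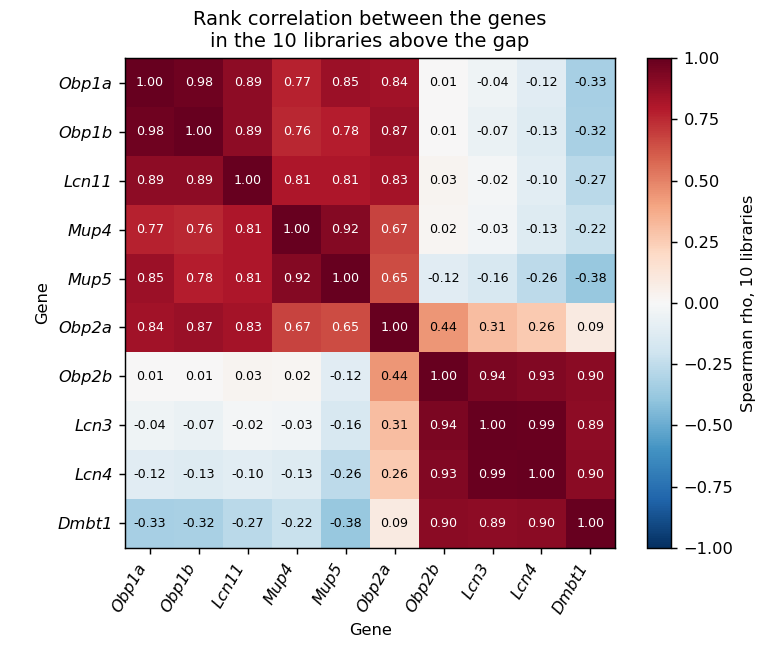
Spearman rank correlation of CPM between each pair of the 10 genes over the 10 libraries above the gap. The block of Obp1a, Obp1b, Lcn11, Mup4, Mup5 and Obp2a runs from 0.65 up, the block of Obp2b, Lcn3, Lcn4 and Dmbt1 from 0.89 up, and the field between the blocks reaches at most 0.44.

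**Figure D3:**
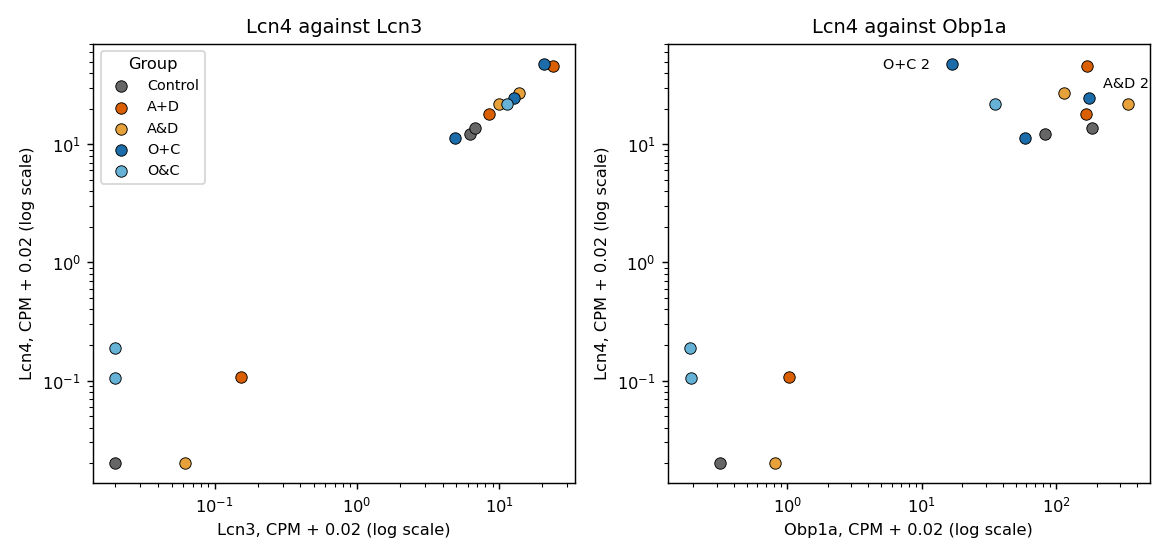
Level of Lcn4 against Lcn3 (left) and against Obp1a (right), in CPM + 0.02 on log axes, 1 point per library coloured by group. On the left the 10 libraries above the gap lie on a line, with a ratio of 1.91 to 2.32, and on the right they scatter between A&D 2 (0.0642) and O+C 2 (2.84).

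Few other genes split the libraries in this way. Of 17019 genes with at least 1 CPM in at least 3 libraries, 19 (0.112%) had the same 5 libraries below their widest gap, the 10 genes themselves and 9 others, which were found after the values were seen. Of those 9, 4 complete the X-chromosome cluster, Gm14744 (23.3 to 400 CPM above the gap, at most 0.403 below it), 5430402E10Rik (6.58 to 135, at most 0.317), Gm14743 (0.752 to 22.7, at 0 below it) and Gm5938 (0.401 to 6.31, at 0 below it). Gm14743 and Gm5938 share reads with Obp1b and Obp1a, so their rows are not independent of those. Transcripts of Gm14744 and 5430402E10Rik are 98.9% identical, and their counts were also not whole, for example 4.802 and 7.198 in A+D 2. The split of reads between these 2 genes is therefore uncertain, and their rows are not independent of each other. The others were 2310057J18Rik (3.13 to 61.9, at 0 below the gap), BC051076 (9.27 to 79.2), Crisp1 (0.522 to 12.3), which codes for a secreted cysteine-rich protein, the kallikrein protease gene Klk14 (0.281 to 1.82), and Car6 (0.201 to 6.29), the secreted carbonic anhydrase of saliva. O+C 2 was the lowest library above the gap for all 9, as it was for Obp1a, Obp1b, Lcn11, Mup4 and Mup5, and for none of Obp2a, Obp2b, Lcn3, Lcn4 and Dmbt1.

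A rank correlation over all 15 libraries with the summed level of the 10 genes gave a similar list. The 10 genes were picked from these same values, so their own place on that list follows from the choice. A rho of 0.8 or more was reached by 18 of the 17019 genes (0.106%) and a rho of -0.8 or less by 0. For each of the 10 genes the sum was taken over the other 9. Of the 10, 6 were among the 18, namely Obp1a and Lcn11 (both 0.957), Obp2a and Obp1b (both 0.954), Mup5 (0.928) and Mup4 (0.896), while Obp2b (0.763), Lcn3 (0.742), Lcn4 (0.702) and Dmbt1 (0.618) were not. The sum follows its abundant genes. Above the gap the median shares were 33.7% for Obp2a, 20.2% for Obp1b, 15.4% for Obp1a and 12.8% for Lcn11. They were 3.37% for Obp2b, 2.60% for Lcn4, 1.21% for Lcn3 and 0.571% for Dmbt1, so rho mostly measures likeness to the first 4. The 12 genes most like the sum among those reaching 10 CPM began with 5430402E10Rik (0.990), Gm14743 (0.971), Gm14744 (0.964), 2310057J18Rik (0.957), Crisp1 (0.946) and BC051076 (0.908). The next 6 were Fastkd3 (0.779), Fastkd2 (0.768), Mzt1 (0.761), Xndc1 (0.761), the odorant receptor gene Olfr1387 (0.757) and Gemin2 (0.750), and these were present in every library, for example at 13.5 to 20.5 CPM for Fastkd3 and 3.67 to 16.2 for Olfr1387. Below 10 CPM, Klk14 (0.960), Gm5938 (0.931), Car6 (0.878), the secretoglobin genes Scgb2b27 (0.877) and Scgb1b27 (0.869), and Pip (0.856), the prolactin-induced protein of gland secretions, also passed 0.8. When the sum of Lcn3, Lcn4, Obp2b and Dmbt1 was used instead, an alternative added after the values were seen, 8 genes passed. They were these 4, Obp2a (0.821), Fdft1 (0.850), Gm28424 (0.814) and a gene without a symbol, and Fdft1, Gm28424 and the unnamed gene varied at most 2.26-fold.

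Other gland genes were looked at by list. Of 25 detected genes on a list of other gland secretions, which also holds Dmbt1, Car6 and Pip had a rho of 0.8 or more, and of the lists of other lipocalins (4 genes detected), BPI fold proteins (8), gland acinar factors and channels (20) and Bowman gland markers (10), none did. The BPI fold genes code for secreted lipid-binding proteins of the airway, led by Bpifa1, Bpifb3 and Bpifb9b. Their summed level was 6841 CPM in O&C 1, 5619 in O&C 3, 13321 in Control 1, 8797 in A+D 2 and 9294 in A&D 1, which took in both the highest and the lowest library, and the full range was 2.37-fold. Bowman gland markers, from the gland of the olfactory mucosa, were at 2836 CPM in O&C 1, 2033 in O&C 3, 4225 in Control 1, 4345 in A+D 2 and 3409 in A&D 1, within a range of 1946 in O+C 1 to 4345. All 10 were detected. Scgb1c1, the most abundant of them, was highest in A+D 2 at 3693 CPM. Both sums hide genes that varied widely between libraries. Bpifb9a and Bpifb9b, which are on both lists, ran from 0 to 307 and from 0.0833 to 918 CPM. Bpifb5, of the BPI fold list, ran from 0 to 14.7 CPM. The list of acinar factors and channels, led by the keratin genes Krt18 and Krt8 and by Aqp5, ranged 1.62-fold and was highest in Control 1. Its sum is thus largely that of keratins, and Aqp5 alone lay between 175 CPM in A+D 2 and 291 in Control 1. Chil6, also a gland product, was at 809 CPM in O&C 1, 698 in O&C 3, 1539 in Control 1, 776 in A+D 2 and 891 in A&D 1, which took in its lowest and its highest library. The other lipocalins, led by Ptgds, Apod and Lcn2, summed to 118 CPM in O+C 3 and up to 688 in Control 3.

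Markers of other cell types were read in the same way. Plasma cells, which sit around nasal glands, summed to 36.4 to 241 CPM, led by Igha and Igkc. The libraries below the gap had 111 (O&C 1), 38.9 (O&C 3), 85.5 (Control 1), 120 (A+D 2) and 128 CPM (A&D 1). Myoepithelial genes, led by Acta2 and Tagln, ranged from 347 CPM in A+D 3 to 852 in Control 1, and sustentacular cells, led by Cyp2a5 and Ugt2a1, from 4071 in O&C 3 to 7935 in Control 1. Markers of mature sensory neurons, led by Omp and Stoml3, ran from 10198 CPM in Control 1 to 21710 in O&C 3, and both ends of that range lay below the gap. The 9 genes of the vomeronasal neuron list summed to 626 to 765 CPM, led by Gnao1, Gnai2 and Cnga4, of which Cnga4 is also on the list of mature sensory neurons. The 326 vomeronasal receptor genes together reached 6.89 to 9.55 CPM, and Trpc2, the channel of vomeronasal neurons, had a median of 0 and at most 1.41. None of the marker lists for plasma, myoepithelial, sustentacular, neuronal, basal, microvillar, glial, ciliated, immune, red blood, vascular, bone and muscle cells held a gene with a rho of 0.8 or more. The labels do not tell the dissections of single mice apart.

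**Figure D4:**
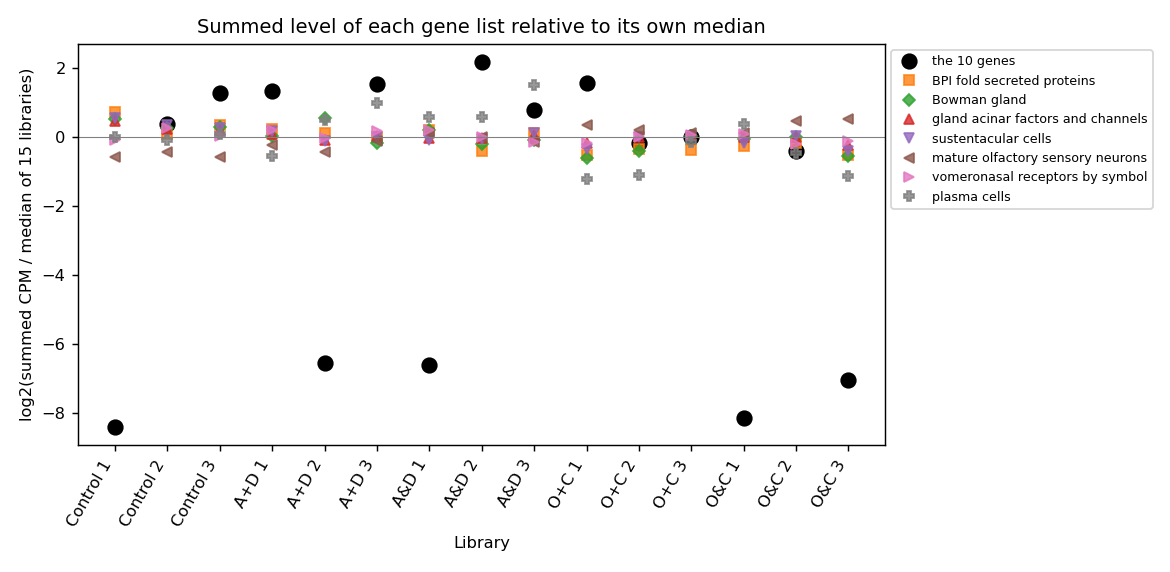
Summed level of the 10 genes (black circles) and of 7 marker lists in each library, as log2 of the ratio to each list's median over the 15 libraries. The 10 genes lie far below their median in O&C 1, O&C 3, Control 1, A+D 2 and A&D 1, and the marker lists scatter around 0 in the same libraries.

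The comparisons the design was made for, each odour group against Control and the 2 ways of delivery against each other, called none of the 10 genes. Against Control, 0 of 10 passed an adjusted p of 0.05 in A+D, where 0.322% of 19229 genes did. It was 0 of 10 in A&D, where 1.02% of all genes passed, in O+C, where 8.09% passed, and in O&C, where 14.7% passed. Between the deliveries it was 0 of 10 for A+D against A&D (0.12% of all genes) and 0 of 10 for O+C against O&C (0%). It was also 0 of 10 for the difference between the 2 delivery effects (0.0104%) and for the mean of the acetophenone and decanal groups against that of the octanal and cis-3-hexenol groups (15.8%). The test was edgeR's quasi-likelihood F test with Benjamini-Hochberg adjustment over all genes. In each of these 8 comparisons 0 of 10 had an unadjusted p under 0.05, and DESeq2 called 0 of 10 as well. Without the filter on low counts, edgeR took each gene's spread from its fitted trend in place of the gene's own (infinite prior degrees of freedom). At least 1 of the 10 genes was then called in every comparison. The counts are given at the end, beside those over all genes where available. The test set each group difference against the spread between libraries within groups. That spread was wide, with a biological coefficient of variation, estimated gene by gene, of 1.29 (Dmbt1) to 2.25 (Mup4) against a median of 0.165 over all genes. The F test itself carried the spread as a quasi-likelihood variance, 22 (Dmbt1) to 172 (Obp1b) for the 10 genes. The standard errors of the fold changes were correspondingly large. The 10 genes were picked for a split that lay within every group but O+C, so a wide spread was built into the choice. Their 0 of 10 therefore cannot show whether odour changes these genes, also where many other genes were called.

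The mean level of Obp2a was 124 ± 123 CPM in Control after TMM scaling (n = 3, ± SD). It was 239 ± 208 CPM with A+D, 253 ± 262 with A&D, 251 ± 180 with O+C and 37.8 ± 63.2 with O&C. Its log2 fold change against Control was 0.95 ± 2.19 (SE) for A+D, 1.02 ± 2.19 for A&D, 1.02 ± 2.19 for O+C and -1.71 ± 2.25 for O&C. For Obp1a it was 0.38 ± 2.12, 0.81 ± 2.13, -0.02 ± 2.12 and -2.83 ± 2.31 in the same order. Of these, the O&C value of Obp1a alone exceeded its standard error. Mup4 differed by 0.09 ± 2.05, 0.37 ± 2.05, -0.40 ± 2.06 and -3.42 ± 2.37 in those groups. Lcn3, of the other set, differed by 1.35 ± 1.83, 0.92 ± 1.83, 1.61 ± 1.83 and -0.11 ± 1.88. Dmbt1 differed by 1.04 ± 1.51, 0.99 ± 1.52, 1.97 ± 1.50 and 0.53 ± 1.53. The median log2 fold change of the 10 genes was 0.82 for A+D, 0.87 for A&D, 0.57 for O+C and -2.22 for O&C, and that of all genes lay between -0.04 and 0.02. The lowest adjusted p among the 10 was 0.7349 for A+D, 0.8601 for A&D, 0.4823 for O+C and 0.2925 for O&C (edgeR). O+C against O&C gave a higher value in O+C for all 10 genes, with a median of 2.77 and an adjusted p of 0.9995 for each. The O&C values rested on O&C 2. Without that library they were -8.90 for Obp1a, -6.60 for Obp2a, -9.78 for Mup4 and -9.65 for Lcn3, and without any 1 other library -3.41 to -1.73, -2.30 to -0.73, -4.00 to -2.82 and -0.69 to 0.49. The negative values in O&C came with O&C 1 and O&C 3 near 0, and no library of O+C was near 0.

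**Figure D5:**
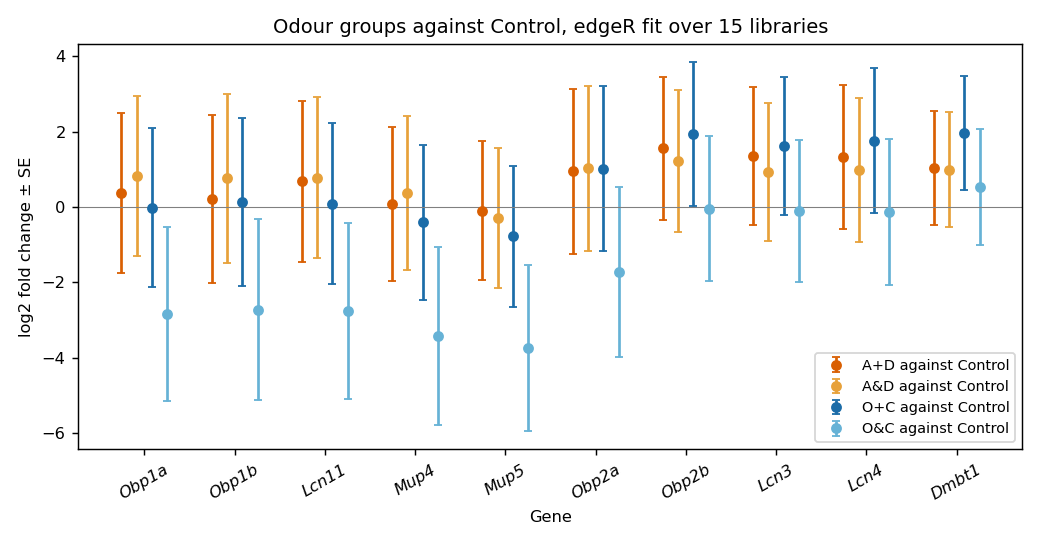
Log2 fold change of each of the 10 genes in the 4 odour groups against Control, from the edgeR fit over 15 libraries, with bars of ± 1 SE. The O&C value is the lowest of the 4 for all 10 genes and most negative for Obp1a, Obp1b, Lcn11, Mup4 and Mup5. No value passed the test.

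The values of the 3 odour libraries and the 3 Control libraries overlapped for most of the 10 genes. In O+C, Obp2b (16.1 to 49.7 CPM against at most 14.8) and Dmbt1 (3.28 to 11.4 against at most 2.63) lay above every Control library, 2 of the 10 genes, where 33% of all genes did not overlap. It was 0 of the 10 for A+D (14.9% of all genes), for A&D (20.4%) and for O&C (40%). Other gland products did pass the test. Of 10 BPI fold genes tested, Bpifa1, Bpifb1, Bpifb4 and Bpifb6 were called lower with octanal and cis-3-hexenol under either delivery, and 0 of 10 with acetophenone and decanal. Of 27 genes tested on the list of other gland secretions, 4 were lower in O+C and 10 in O&C, Vmo1, Chil6 and Chil3 among them, and 0 were higher. Of the 4 other lipocalins, Apod (-1.14 ± 0.27, adjusted p = 0.0172) and Lcn2 were lower in O+C and Lcn2 in O&C (edgeR). The 15 markers of mature sensory neurons were all called higher under both deliveries of octanal and cis-3-hexenol, and 3 of them in A&D. Of 21 acinar factors and channels tested, 4 were lower in O+C and 7 in O&C, with 0 higher. The Bowman gland list, which shares genes with that list, had 10 tested, 1 lower in O+C and 3 in O&C, with 0 higher. Lower calls were not limited to gland lists. Of 15 immune cell markers, O+C had 6 lower and O&C 8, with 0 higher. All 6 red blood cell markers were lower with O&C, but 0 with O+C. Of 14 sustentacular markers, 1 was lower with O+C and 5 with O&C. Bone and muscle markers had 0 calls under either delivery. Over all genes, 8.09% (O+C) and 14.7% (O&C) were called in either direction, and the share called lower alone is not given here. Whether the larger neuronal share of the counts has a part in the lower gland products or these other lists was not tested.

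A further pair of gland genes also varied widely between libraries. Bpifb9a and Bpifb9b, BPI fold genes on the Bowman gland list, were at 307 and 918 CPM in Control 1, where the 10 genes were near 0, and at 141 and 429 CPM in O&C 1. In A&D 1 they were listed at 0 and 0.0833 CPM. In A+D 3 they were at 0.0508 and 0.404 CPM, while Obp2a was at 393 CPM there. In O&C 3, where the 10 genes were near 0, they were at 0.295 and 1.099 CPM.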

How the data were processed

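Messenger RNA bound to pS6 was sequenced in 15 libraries. The deposited values are expected counts, which Salmon estimates and which can be fractions where reads fit several genes, without scaling by library size. STAR 2.7.10b, Salmon 1.10.1, R 4.4.2 and the build GRCm39 were used, per the submitters' processing notes. The annotation and the use of strand are not given in the sources used here. Between 86.0% and 87.9% of the values of a library were whole numbers within 0.0005. Of 57010 gene identifiers, 52029 matched a symbol.

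Groups were taken from the sample titles. The 10 genes and all gene lists were chosen with earlier results of these data known. Levels of single libraries are CPM over the library's total. Genes with at least 1 CPM in at least 3 libraries, 17019, entered the gap search and the rank correlations. Besides the 10 genes, the text names the 12 genes most like their sum among those reaching 10 CPM, and from each list the leading genes by highest CPM. Genes named outside this rule were chosen after their values were seen.

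For the comparisons, counts were rounded to whole numbers and genes were kept by filterByExpr with a minimum count of 10, which left 19229. The fit was edgeR 4.0.16 in R 4.3.3 with TMM scaling (factors 0.95 to 1.05), a mean per group over all 15 libraries and the robust quasi-likelihood F test, two-sided, with Benjamini-Hochberg adjustment at 0.05. The script was tested on simulated data. DESeq2 1.42.0, other filters and scalings, a replicate block and leaving out single libraries were the alternatives. The labels share replicate numbers across groups, but 0 of 10 pairs of groups had all 3 correlations of same-numbered libraries over 0.1, so the numbers were not used as pairs. Promoters and gene order came from RefSeq tables of GRCm38 and transcripts from GENCODE M21 of the same build, so the files' own build was not used for positions. Intervals and floors cover counting error only. Protein sequences were not analysed here.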

Additional observations from a re-analysis of the deposited data

How the results depend on the processing

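The count of 0 among the 10 genes held with DESeq2, with library totals or RLE factors in place of TMM, without the robust option, with only the groups compared, with the replicate block and in every fit that left out 1 library. Without the filter on low counts it was 6 for A+D, 8 for A&D, 6 for O+C and as many for O&C against Control, 1 between A+D and A&D, 10 between O+C and O&C, 9 for the difference of the delivery effects and 7 for the acetophenone and decanal groups against the octanal and cis-3-hexenol groups. In that fit edgeR's prior degrees of freedom were infinite, while they were 0.186 to 0.300 for the 10 genes otherwise, so each gene's spread was that of the trend. Genes called over all genes, in the same order, were 885 (A+D), 610 (A&D), 208 (between these), 204 (between O+C and O&C) and 204 (delivery effects) without the filter. Those totals are out of 33222 genes tested in that fit in place of 19229, and the part of each change was not tested. Totals without the filter are not given here for O+C and O&C against Control or for the odorant pairs. The counts of the 10 genes in these comparisons thus have no share beside them and are not read further. DESeq2 called 235, 439, 43, 9 and 8 in these 5 comparisons. With only the groups compared it was 368 for A&D, 2618 for O+C, 4664 for O&C and 10 between A+D and A&D, with fewer samples behind the spread. The 5 libraries below the gap were chosen by the 10 genes' own levels, and without them O&C is O&C 2 alone, 1 library assumed to vary like the other groups, so that fit says nothing about stability. In it the count was 108 for A&D, 802 for O&C, 11 between A+D and A&D, 5 between O+C and O&C, 0 for the delivery effects and 754 between the odorant pairs.

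Leaving out 1 library, genes called ranged from 43 to 527 in A+D (527 without A+D 1), 112 to 201 in A&D (112 without Control 1, 130 without Control 2, 122 without A&D 1, 128 without A&D 2), 542 to 1206 in O+C (743, 834 and 793 without Control 1, 2 and 3, 542 without O+C 1, 966 without O+C 3) and 1274 to 2284 in O&C (1727, 1789 and 1826 without Control 1, 2 and 3, 1274 without O&C 3). They ranged from 10 to 20 between A+D and A&D (12 without A+D 1, 10 without A+D 3, 11 without A&D 1 or A&D 2), 0 to 2 between O+C and O&C (1 without O+C 1, 2 without O&C 1), 1 to 4 for the delivery effects (1 without A&D 2 or O&C 1, 4 without O&C 2) and 1720 to 4293 between the odorant pairs (1781 without A&D 1, 1833 without O+C 1, 1720 without O&C 3). Genes with a rho of 0.8 or more to the sum of the 10 numbered 18 to 31 (31 without O+C 1), and 8 for the sum of Lcn3, Lcn4, Obp2b and Dmbt1. The widest gap of Mup5 had 6 libraries below it with a pseudocount of 1.

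Fold changes against Control turned sign when 1 library was left out, on the log2 scale from -0.21 to 1.48 for Obp1a in A+D (without Control 1, A+D 1 or A+D 3), -0.50 to 0.69 for Mup4 in A+D (the same 3), -0.58 to 1.91 for Obp1a, -0.093 to 2.01 for Obp2a and -1.62 to 0.97 for Mup4 in A&D (without A&D 2, and for Mup4 also Control 1). In O+C they were -1.21 to 1.08 for Obp1a (without either O+C 2, O+C 3 or Control 3) and -1.69 to 0.20 for Mup4 (without either O+C 2 or Control 2). With O&C they were -9.65 to 0.49 for Lcn3 (when either O&C 1, O&C 3, Control 2 or Control 3 was missing) and -2.70 to 1.105 for Dmbt1 (without O&C 2). Lcn3 in O&C was 0.87 in O&C 2 alone, without the 5 libraries. With the replicate block Obp1a in O+C was 0.96 and Mup4 0.70, the delivery effects had 1 gene called, and no other count moved by over 1.5 times. Same-numbered libraries correlated between -0.331 and 0.144, and 1 of 15 libraries correlated best with its own number. None of these fold changes had passed the test. The cause was not tested. Between 28 and 98 counts lay behind the 10 genes in each of the 5 libraries, so shares within them are imprecise.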
